A study of Homo sapiens with 6 samples.

Results

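Aminoacyl-tRNA synthetases are the enzymes that join each amino acid to its transfer RNA. The list followed here, taken by gene symbol, holds 38 genes: 19 of cytosolic synthetases, 16 of mitochondrial synthetases and 3 of scaffold proteins. They were measured in HCT116 cells, an established human colorectal carcinoma line, kept for 48 h with NU7441, which inhibits DNA-dependent protein kinase, at 40 µM, or with the vehicle alone, 0.1% (v/v) dimethyl sulfoxide. Each group had 3 samples, each read on an Illumina bead array of its own. Whether they came from separate cultures is not stated, so p-values cover the spread among samples that may be technical repeats. The single cell line, dose and time limit what the groups stand for. The question was which synthetase transcripts differ in level after 48 h of the inhibitor.

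Of the 38 genes, 35 were named on the array and 33 had a probe that passed the detection filter, among 9342 genes tested. The filter asked that all 3 arrays of either group have a detection p below 0.05, and 31 of the 33 genes were detected on all 6 arrays. PARS2 was detected on 5 arrays and TARS2 on 4. No probe carried the name of CARS1, AIMP2 or EEF1E1, which are therefore not analysed here. The probes of WARS2 and AIMP1 were not detected on any of the 6 arrays. The 33 genes comprised 18 cytosolic and 15 mitochondrial synthetases, and no scaffold protein was measured.

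In the cytosol, several synthetases are held in a multisynthetase complex with the scaffold proteins AIMP1, AIMP2 and EEF1E1, while the others work free of it. Mitochondria use a separate set of synthetases, encoded in the nucleus, to charge the transfer RNAs that serve translation of the mitochondrial genome. KARS1 and GARS1 each make both a cytosolic and a mitochondrial enzyme, and EPRS1 charges both glutamate and proline. Many cytosolic synthetase genes are known targets of ATF4, the transcription factor induced by amino acid shortage, which binds a C/EBP-ATF response element near their starts. MYC is also known to raise the expression of genes of protein synthesis.

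Across the arrays, 16593 to 17788 probes were detected, or 35.06% to 37.59%. Precision is limited by the number of arrays. Of the 8 epithelial marker genes listed, 7 were detected on all 6 arrays, among them EPCAM, CDH1 and KRT8. Of the listed fibroblast, immune and endothelial markers, 0 were. NU7441 replicate 3 stood apart from the other arrays of its group on the second principal component, at 15.12 against -12.58 for replicate 1 and -3.7 for replicate 2. In bulk samples, fewer cells with a transcript and less RNA per cell cannot be told apart.

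Synthetase transcripts were mostly lower or not distinguishable from vehicle, and the changes were small. Of the 33 measured, 10 fell and 1 rose, with limma's adjusted p below 0.05 after Benjamini-Hochberg adjustment over the 9342 genes. The median log2 fold change of NU7441 over vehicle was -0.19, against 0.00 over all genes. The largest fall was that of YARS2, to 0.612 times the vehicle level, and the only rise was that of SARS1, to 1.30 times. The share of synthetases called in either direction, 33.3%, was no larger than that of all genes, 38.5%. By direction, 30.3% of the synthetases were lower against 19.7% of all genes, and 3.03% were higher against 18.7%. Whether these shares differ was not tested. In 16 of the 33 genes the groups did not overlap, 15 of them lower with NU7441 and 1 higher. Over all genes the groups were separate in 49.9%, lower in 25.6% and higher in 24.2%.

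The balance of rises and falls depends on how arrays are scaled to each other. Of all called genes 48.6% were higher in the main analysis, 35.9% with each array scaled to its 75th percentile over all probes, and 63.2% when the percentile was taken over the probes detected on all arrays. Among the synthetases, 13 were lower and 0 higher under the former scaling, and 8 were lower and 1 higher under the latter. Of all genes tested, 24% were lower and 13.4% higher under the former, and 15% and 25.7% under the latter. The direction of every called synthetase was the same under both. Fold sizes also depend on the background step. Without background correction the log2 fold changes of the 11 called genes lay between -0.48 for YARS2 and 0.24 for SARS1, and all 11 passed. All 11 changes were smaller in size than in the main analysis. The dimmest called genes, FARSA, LARS2 and MARS2, went from -0.68, -0.57 and -0.42 to -0.29, -0.22 and -0.17. The brightest, YARS1, VARS1 and IARS1, went from -0.43, -0.42 and -0.33 to -0.37, -0.34 and -0.26.

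**Figure D1:**
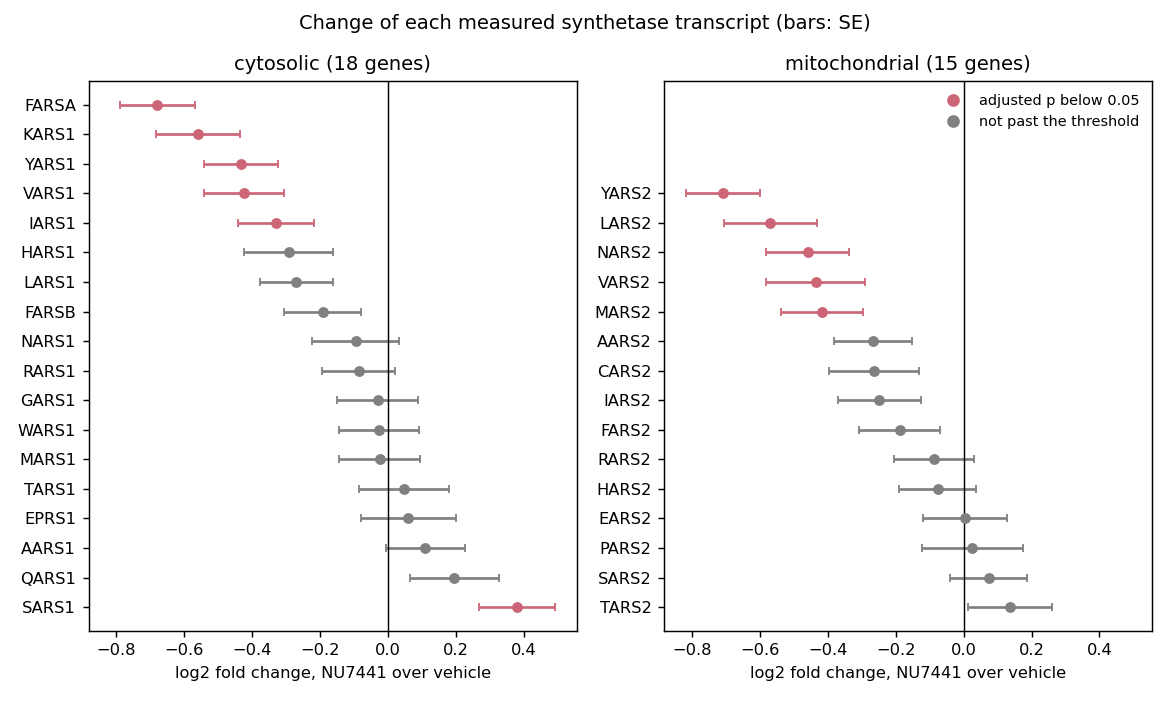
Log2 fold change of NU7441 over vehicle (x axis) for each of the 18 cytosolic (left) and 15 mitochondrial (right) synthetase genes measured, ordered by change. Points are fitted changes over 3 arrays per group, bars are SE, and red marks an adjusted p below 0.05: 10 genes lie to the left of 0, and SARS1 to the right.

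Among the 18 cytosolic synthetases measured, 5 fell (27.8%) and 1 rose (5.56%), against 19.7% and 18.7% of all genes. In either direction 33.3% were called, against 38.5%. The other 12 did not pass, and the median was -0.09. FARSA encodes the catalytic alpha subunit of phenylalanyl-tRNA synthetase. Its log2 intensity was 6.01, 6.17 and 6.10 on the vehicle arrays and 5.37, 5.52 and 5.36 on the NU7441 arrays. All NU7441 arrays lay well below all vehicle arrays, with a log2 fold change of -0.68 ± 0.11 (SE, limma adjusted p = 0.000226). FARSB encodes the beta subunit of the same enzyme. It read 11.93, 11.88 and 12.00 on the vehicle arrays and 11.80, 11.84 and 11.60 with NU7441. These groups were also separate, but narrowly, and the change of -0.19 ± 0.11 did not pass (adjusted p = 0.192). Within each array the alpha minus beta difference was lower by 0.49 ± 0.09 (SE, n = 3 per group) with NU7441, without overlap between the groups. It was -0.10 without background correction and -0.65 with either percentile scaling, in the same direction. Both scalings shift each array by a constant, so they give the same within-array differences and count as a single check.

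KARS1, lysyl-tRNA synthetase, is a member of the multisynthetase complex. Its vehicle arrays were nearly identical, at 6.90, 6.90 and 6.89, and its NU7441 arrays read 6.29, 6.15 and 6.58. The fall was -0.56 ± 0.12 on the log2 scale (limma adjusted p = 0.00229), and replicate 3 was the least affected of the NU7441 arrays. YARS1, the cytosolic tyrosyl enzyme, read 8.95, 9.05 and 8.89 with vehicle and 8.52, 8.58 and 8.49 with NU7441. The arrays of each group lay close together, and the change was -0.43 ± 0.11 (adjusted p = 0.00547). VARS1, valyl-tRNA synthetase, which associates with the elongation factor complex that reloads EEF1A, read 8.32, 8.53 and 8.32 against 7.92, 7.87 and 8.11. Its groups were separate as well, at -0.42 ± 0.12 (adjusted p = 0.00999). Without vehicle replicate 2, the highest vehicle array, its adjusted p was 0.0592. A second VARS1 probe was detected on 0 of 6 arrays and was not kept.

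IARS1, isoleucyl-tRNA synthetase and a member of the complex, showed the weakest of the cytosolic calls. Its vehicle arrays read 8.27, 8.51 and 8.30 and its NU7441 arrays 8.02, 8.02 and 8.06. The NU7441 arrays lay within an SD of 0.02, the smallest NU7441 SD of any synthetase, and the change was -0.33 ± 0.11 (limma adjusted p = 0.0297). The call was lost without vehicle replicate 2 (adjusted p = 0.139), vehicle replicate 3 (0.0556), NU7441 replicate 1 (0.0546) or NU7441 replicate 2 (0.0708). A second, dimmer IARS1 probe was detected on 2 of 6 arrays and was not kept.

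SARS1, seryl-tRNA synthetase, was the only synthetase that rose. It read 6.87, 6.69 and 6.84 with vehicle and 7.22, 7.21 and 7.11 with NU7441. The groups did not overlap, and the change was 0.38 ± 0.11 (limma adjusted p = 0.0133). The call was lost without vehicle replicate 2, at 0.32 with an adjusted p of 0.0676, and with scaling to the 75th percentile over all probes, at 0.25 with an adjusted p of 0.112. Its mitochondrial counterpart SARS2 stood at 0.07 ± 0.11 (adjusted p = 0.63).

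**Figure D2:**
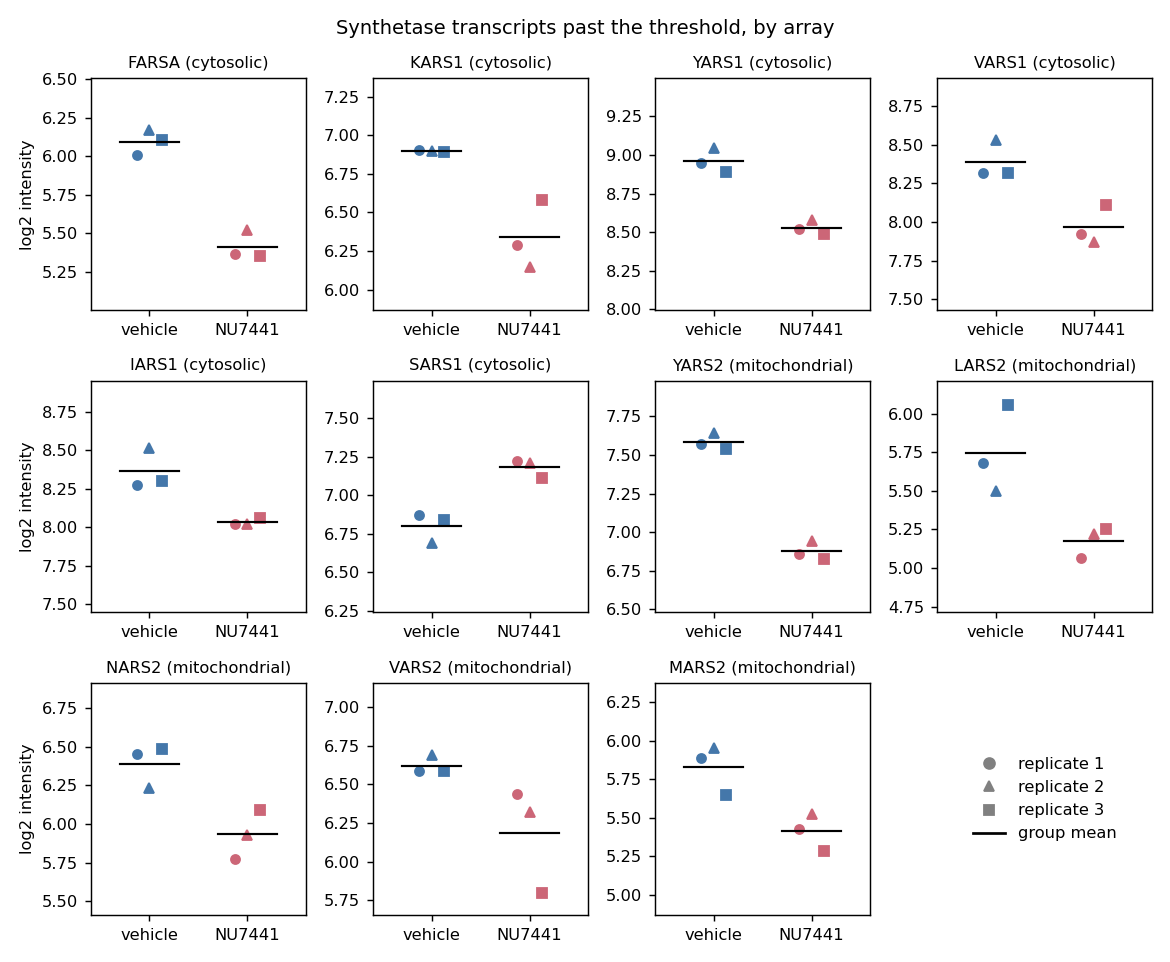
Log2 intensity (y axis, each panel spanning the same range) of the 11 synthetase transcripts past the threshold on each of the 3 vehicle (blue) and 3 NU7441 (red) arrays. Symbols mark the replicate number, black lines the group means. The genes were chosen by adjusted p on these same arrays. In all 11 panels the groups do not overlap, as in 49.9% of all genes tested, and only SARS1 is higher with NU7441.

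The cytosolic synthetases that did not pass fell into 2 kinds. In LARS1, HARS1, RARS1 and FARSB all NU7441 arrays lay below all vehicle arrays. LARS1, the leucyl enzyme that also senses leucine for mTORC1, read 7.31, 7.30 and 7.25 with vehicle and 7.09, 7.01 and 6.95 with NU7441. Its change of -0.27 ± 0.11 narrowly missed the threshold (limma adjusted p = 0.0595) and passed it under some other settings, over which the adjusted p ran from 0.0102 to 0.151. HARS1, histidyl-tRNA synthetase, was at -0.29 ± 0.13 (adjusted p = 0.0904), at -0.39 with an adjusted p of 0.0297 without NU7441 replicate 1, and at -0.48 with an adjusted p of 0.00557 when scaled to the 75th percentile over all probes. Without NU7441 replicate 3, its lowest array, it was at -0.15 (adjusted p = 0.322). In the other 8, namely AARS1, EPRS1, GARS1, MARS1, NARS1, QARS1, TARS1 and WARS1, the groups overlapped. Their changes ran from -0.10 for NARS1 to 0.20 for QARS1. QARS1, glutaminyl-tRNA synthetase, read 9.74, 9.69 and 9.74 with vehicle but 10.20, 9.89 and 9.68 with NU7441, so that replicate 3 lay just below the vehicle arrays and the other two above them. TARS1, the threonyl enzyme, spread from 8.44 to 8.94 over the NU7441 arrays, around a vehicle mean of 8.65 ± 0.12 (SD, n = 3). WARS1, which is also an interferon-induced gene, had a second kept probe that read -0.07 ± 0.11 beside -0.03 ± 0.12 for the brighter.

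Genes that fell were found both in the multisynthetase complex and outside it, in shares not far from the 19.7% of all genes. Of the 7 complex enzymes measured, 2 fell (28.6%) and 0 rose, with a median of -0.09. Of the 11 free cytosolic synthetases measured, 3 fell (27.3%) and 1 rose, with a median of -0.10. Grouped by the fold of the catalytic domain over both compartments, 7 of 16 class I enzymes fell (43.8%) and 0 rose, with a median of -0.27. Among the 16 class II enzymes 3 fell (18.8%) and 1 rose, with a median of -0.09. EPRS1, which carries a catalytic domain of each class, was left out of that split. These subsets are small, and the differences between them were not tested.

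Among the 15 mitochondrial synthetases measured, 5 fell (33.3%) and 0 rose, against 19.7% and 18.7% of all genes, or 38.5% in either direction. The other 10 did not pass, and the median was -0.25. That median stood at -0.0875 without background correction, beside -0.0785 for the cytosolic genes, and without NU7441 replicate 2 it was -0.14 beside -0.17, so the order of the compartments was not settled. YARS2, the mitochondrial tyrosyl enzyme, showed the largest change of any synthetase measured. It read 7.57, 7.64 and 7.54 with vehicle and 6.86, 6.94 and 6.83 with NU7441. The spread within each group was small beside the gap between them, and the change was -0.71 ± 0.11 (limma adjusted p = 0.000123). LARS2, the mitochondrial leucyl enzyme, read 5.68, 5.50 and 6.06 against 5.07, 5.22 and 5.25. Its vehicle arrays varied more than those of any other synthetase (SD 0.29, n = 3), but the groups did not overlap, and the change was -0.57 ± 0.14 (adjusted p = 0.00426). NARS2, asparaginyl, read 6.45, 6.23 and 6.49 against 5.77, 5.93 and 6.09. Its change was -0.46 ± 0.12 (adjusted p = 0.00789), with every NU7441 array below every vehicle array.

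VARS2 and MARS2 encode the mitochondrial valyl and methionyl enzymes, and their calls did not hold when some single arrays were left out. VARS2 read 6.59, 6.69 and 6.59 with vehicle and 6.44, 6.32 and 5.80 with NU7441. The low value of NU7441 replicate 3 gave it the widest NU7441 spread of any synthetase (SD 0.34, n = 3). Its change was -0.44 ± 0.15 (limma adjusted p = 0.0272), and without NU7441 replicate 3 it was -0.24 with an adjusted p of 0.10. The call was also lost without vehicle replicate 1 (0.0573), replicate 2 (0.0959) or replicate 3 (0.0594). MARS2 read 5.89, 5.95 and 5.65 against 5.43, 5.52 and 5.29. All its NU7441 arrays lay below the vehicle arrays, at -0.42 ± 0.12 (adjusted p = 0.013). Without vehicle replicate 1 the adjusted p was 0.0531, and without vehicle replicate 2 it was 0.0679. A second MARS2 probe was detected on 2 of 6 arrays and was not kept.

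Of the mitochondrial synthetases that did not pass, AARS2, CARS2 and IARS2 stood at -0.27, -0.26 and -0.25. AARS2, alanyl, read 5.47, 5.53 and 5.48 against 5.22, 5.38 and 5.08, with separate groups and an adjusted p of 0.0776 in limma's fit. CARS2, cysteinyl, and IARS2, isoleucyl, had overlapping groups, because NU7441 replicate 3 read 4.92 and 8.48 and lay among the vehicle arrays. Without that array CARS2 was at -0.37 and IARS2 at -0.35, with adjusted p of 0.0353 and 0.028. CARS2 was near background, with a detection p of up to 0.0442. FARS2, RARS2, HARS2, EARS2, PARS2, SARS2 and TARS2 lay between -0.19 and 0.14 with overlapping groups. PARS2 and TARS2 were near background as well, so little can be seen of them.

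Leaving out single arrays moved the counts. Without vehicle replicate 2, 3 cytosolic synthetases were lower and 0 higher. The mitochondrial count was 3 lower without vehicle replicate 1 and also 3 without vehicle replicate 2. Calls over all genes were fewer as well. Without vehicle replicate 2, 15.6% of all genes were lower and 14.1% higher, against 19.7% and 18.7% with all arrays. Without vehicle replicate 1, 15.9% were lower. Of the 11 called genes, 6 passed under all 18 other settings, namely FARSA, KARS1, YARS1, YARS2, LARS2 and NARS2.

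Cytosolic and mitochondrial genes for the same amino acid could be set side by side in 15 pairs, in which EPRS1 and FARS2 each appear more than once. Both genes fell for tyrosine (YARS1 and YARS2) and valine (VARS1 and VARS2). Only the cytosolic gene passed in 3 pairs, only the mitochondrial gene in 3, and neither in 7. To compare the changes, the log2 difference between the genes was taken within each array. The cytosolic change lay above the mitochondrial in 10 pairs and below it in 5, with a median difference of 0.03, but this balance depends on the processing. Without background correction it was 9 above and 6 below, and with percentile scaling 7 above and 8 below, with a median of -0.0092. Both percentile scalings give that same result, since a shift of a whole array cancels in a within-array difference. An exact permutation test of 3 against 3 arrays cannot give a p below 0.1, so each difference is given with its SE and the overlap of the groups.

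For 5 pairs the within-array difference rose with NU7441 without overlap between the groups. Such separation was common here: single genes were separate in 49.9% of all genes, 24.2% higher and 25.6% lower. The share over other gene pairs was not computed. It was 0.27 ± 0.02 for YARS1 over YARS2, where both genes fell and the mitochondrial gene fell further. For methionine the difference was 0.39 ± 0.17, with MARS1 at -0.02 ± 0.12 (limma adjusted p = 0.892) and MARS2 lower. Asparagine gave 0.36 ± 0.16, with NARS1 at -0.10 ± 0.13. Alanine gave 0.38 ± 0.08, although neither AARS1, at 0.11 ± 0.12, nor AARS2 passed alone. Serine gave 0.31 ± 0.05. Without background correction these 5 differences were 0.11, 0.15, 0.15, 0.20 and 0.19 in the same order, each in the same direction. The groups stayed separate for tyrosine, alanine and serine but overlapped for methionine and asparagine without background correction, in the authors' deposited table and with either percentile scaling. In 1 pair the within-array difference fell without overlap, FARSA over FARS2, by 0.49 ± 0.15, or by 0.20 without background correction. For the other subunit, FARSB over FARS2, it changed by -0.004 ± 0.14 with overlapping groups.

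**Figure D3:**
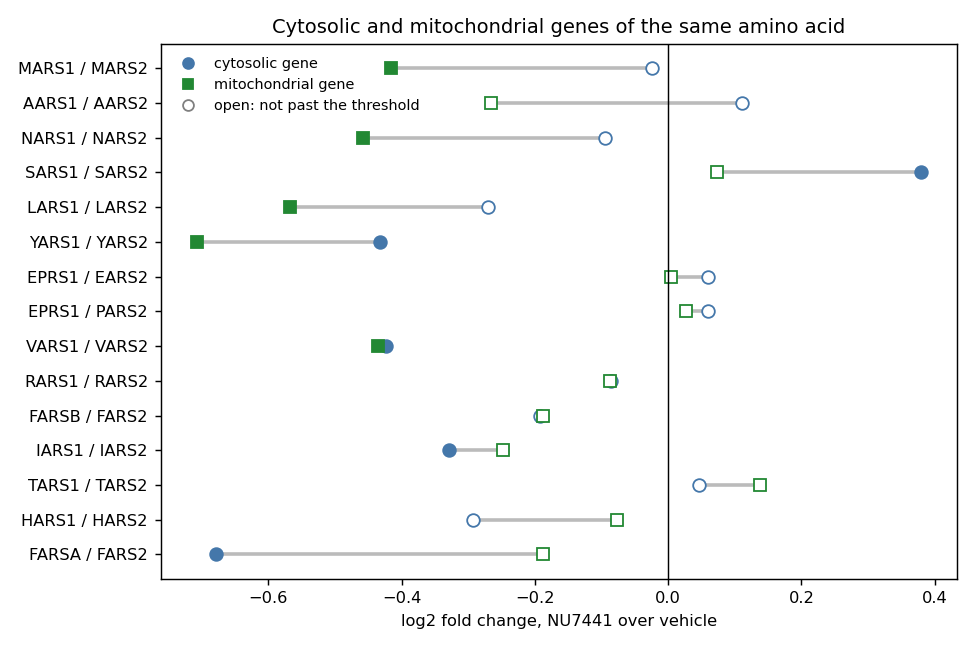
Log2 fold change of NU7441 over vehicle (x axis) of the cytosolic gene (blue circles) and the mitochondrial gene (green squares) in each of 15 pairs for the same amino acid, ordered by the difference. Filled symbols passed the threshold; the distance between symbols is largest for phenylalanine (FARSA and FARS2) and, in the other direction, for methionine, alanine and asparagine.

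HARS1 and HARS2 are neighbours whose starts point away from each other. In the RefSeq promoter table (build GRCh38.p14, 250 bases before to 50 after each start) their starts lie 85 bases apart on chromosome 5, at 140691370 and 140691455. The 184 bases shared by both windows, chr5:140691321-140691504, are shown because they hold both starts. Only the bases between the starts precede both genes, and the rest lie within HARS1 or HARS2. They are written in the sense of HARS2, with the first base of each gene in capitals, HARS1 on the left and read leftward, HARS2 on the right and read rightward.
HARS1 and HARS2 shared window: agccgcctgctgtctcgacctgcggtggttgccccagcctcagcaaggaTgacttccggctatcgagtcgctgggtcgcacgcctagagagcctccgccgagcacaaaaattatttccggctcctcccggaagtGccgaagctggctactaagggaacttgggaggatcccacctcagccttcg
HARS1 read 8.44, 8.50 and 8.35 with vehicle and 8.34, 8.23 and 7.85 with NU7441. HARS2 read 7.98, 8.01 and 8.13 against 8.03, 7.84 and 8.02, so its groups overlapped. The change of HARS2 was -0.08 ± 0.11 and did not pass (limma adjusted p = 0.615). The within-array difference of HARS1 over HARS2 was lower by 0.22 ± 0.19 with overlapping groups, so a difference in response between the neighbours was not detectable here.

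The promoter windows of 28 of the 33 measured synthetase genes were in the table, with none for LARS1, VARS1, YARS1, AARS2 and VARS2. The C/EBP-ATF element was searched as TGATGNAAN on both strands. It was found for 6 of 15 cytosolic genes, or 40%, and for 1 of 13 mitochondrial genes, against 2.59% of all genes tested with a window. Some genes have a window for more than 1 start, and a match in any of them counted. GARS1 and TARS1 each have a further window without the element. The matches are printed in the sense of the gene, 5′ to 3′, with the element in capitals and 16 bases on either side, because ATF4 is the regulator best known for this enzyme family. The element is read on the opposite strand in AARS1, GARS1, IARS1, MARS1 and TARS1. ASNS, asparagine synthetase, is shown beside them as a known ATF4 target that rose here.
AARS1 (chr16:70289670-70289710): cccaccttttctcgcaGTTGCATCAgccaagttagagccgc
GARS1 (chr7:30594828-30594868): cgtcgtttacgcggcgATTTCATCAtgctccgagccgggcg
IARS1 (chr9:92293687-92293727): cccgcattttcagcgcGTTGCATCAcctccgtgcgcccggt
MARS1 (chr12:57488047-57488087): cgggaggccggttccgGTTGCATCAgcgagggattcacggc
NARS1 (chr18:57621798-57621838): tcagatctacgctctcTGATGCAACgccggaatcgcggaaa
TARS1 (chr5:33440950-33440990): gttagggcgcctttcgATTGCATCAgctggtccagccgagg
YARS2 (chr12:32756070-32756110): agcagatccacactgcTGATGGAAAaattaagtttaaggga
ASNS (chr7:97872452-97872492): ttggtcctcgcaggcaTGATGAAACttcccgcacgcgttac
These are matches of letters, not binding sites. In IARS1, MARS1, NARS1 and TARS1 the match begins within 14 bases of a listed start. In AARS1 it begins 188 and in YARS2 197 bases before the start.

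Of the 6 cytosolic synthetases with the element, 1 fell, IARS1, and 5 did not pass, with a median of -0.03. The 9 without it held 2 lower and 1 higher, with a median of -0.09. YARS2, the 1 mitochondrial gene with the element, fell. Of all 198 genes tested with the element, 43 fell and 32 rose, with a median of -0.02. Of the 7437 without it, 1453 fell and 1417 rose, with a median of 0.01. The synthetases with the element are few, and a difference from these genes was not tested. The letters CACGTG, the E-box bound by MYC, stood in a window of IARS1, CARS2, EARS2 and MARS2. That was 14.3% of the synthetase genes with a window, against 13.2% of all genes tested with a window. The element of the mitochondrial regulator NRF1, searched as GCGC, any base, then TGCGC, stood in a window of 6 genes. These were FARSB, SARS1, TARS1, IARS2, MARS2 and PARS2, or 21.4% against 14.5%. MARS2 thus held both, and its E-box overlapped no NRF1 match.

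Genes of the ATF4 amino acid response moved in both directions. Of 28 measured, 10 rose (35.7%) and 4 fell (14.3%), with a median of 0.06, against 18.7% and 19.7% of all genes. PCK2, mitochondrial phosphoenolpyruvate carboxykinase, was at 1.00 ± 0.12 (limma adjusted p = 1.4e-05), DDIT4, an inhibitor of mTORC1, at 0.99 and SLC38A2, an amino acid transporter, at 0.89. ASNS read 9.48, 9.42 and 9.49 with vehicle and 10.35, 10.23 and 9.96 with NU7441. All its NU7441 arrays were higher, by 0.72 ± 0.12 (adjusted p = 0.000267). The 4 genes of the list that fell were TRIB3 at -0.50, ALDH18A1 at -0.43, SLC7A5 at -0.35 and MTHFD2 at -0.31. The transcript of ATF4 itself was at 0.23 ± 0.11 and did not pass (adjusted p = 0.121). Of the 7 genes of that list with the element 3 rose and 0 fell, with a median of 0.20. Of the 17 whose window lacked it 7 rose and 4 fell, with a median of 0.23. A link to the element was not tested. Among the 10 measured synthetases known as ATF4-induced, SARS1 rose (10%, against 18.7% of all genes). IARS1 and YARS1 fell (20%, against 19.7%), and the median was -0.03. Among the 8 other cytosolic synthetases, 3 fell (37.5%) and 0 rose, and the median was -0.28. The difference between these groups was not tested. The count of lower genes in the ATF4 list was 2 when vehicle replicate 1 or NU7441 replicate 1 was left out, and 1 when vehicle replicate 2, vehicle replicate 3 or NU7441 replicate 3 was. The lower share of all genes was then 15.9% and 19.4%, and 15.6%, 15.5% and 19.7%, in the same order. MYC fell, from 9.67, 9.42 and 9.71 to 8.70, 8.73 and 8.60, or by 0.92 on the log2 scale (SE 0.12, adjusted p = 2.47e-05).

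**Figure D4:**
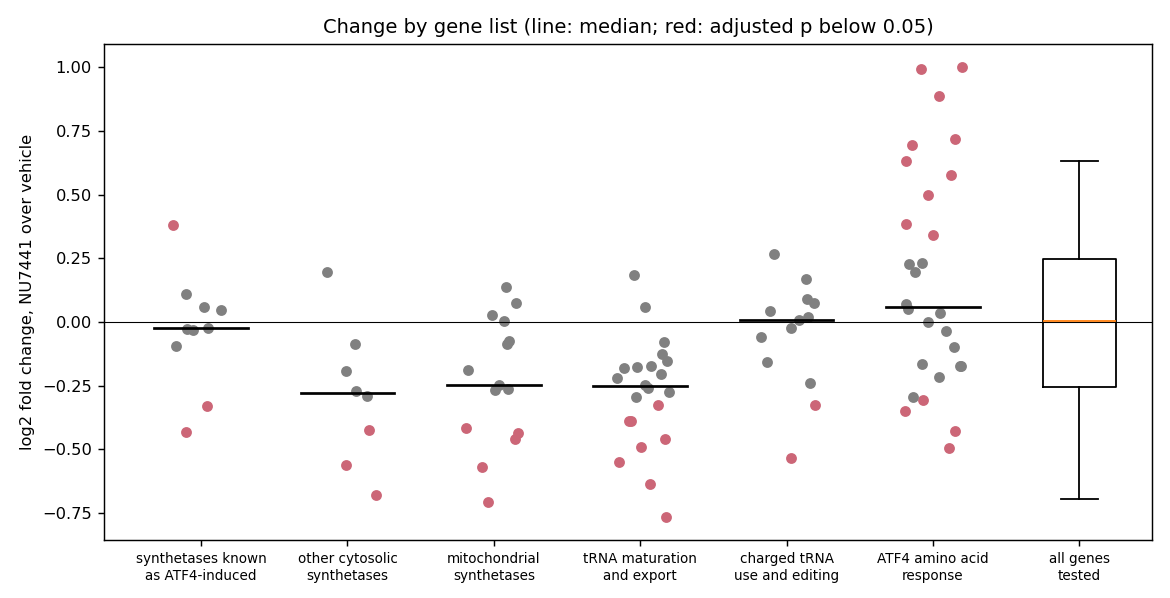
Log2 fold change of NU7441 over vehicle (y axis) of the genes in 6 lists, 1 point per measured gene, red where the adjusted p is below 0.05, with the list's median as a line. The box at the right shows all 9342 genes, with whiskers from the 5th to the 95th percentile. Only the ATF4 list reaches 1.00, and the other lists end at or below the 0.38 of SARS1.

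The genes that make and handle transfer RNAs around the synthetase step were lower or did not pass. Of 22 measured genes of transfer RNA maturation and export, 8 fell (36.4%) and 0 rose, with a median of -0.25, against 19.7% and 18.7% of all genes. POP1, a subunit of RNase P and RNase MRP, read 5.90, 5.91 and 5.82 with vehicle and 4.96, 5.24 and 5.14 with NU7441. Its groups lay far apart, at -0.77 ± 0.11 (limma adjusted p = 0.000102). PRORP, the catalytic subunit of mitochondrial RNase P, was at -0.64 ± 0.11 (adjusted p = 0.000448). POP7, a further RNase P subunit, and TSEN15, a subunit of the splicing endonuclease for transfer RNA, were at -0.55 and -0.49. Of 13 measured genes that use, deliver or proofread charged transfer RNAs, 2 fell (15.4%) and 0 rose, with a median of 0.01. DTD2, which removes wrongly attached amino acids, was at -0.53 ± 0.13 (adjusted p = 0.00386), and TSFM, a mitochondrial elongation factor, at -0.33 ± 0.13 (adjusted p = 0.0497). In that list 1 gene was lower without background correction, and also when vehicle replicate 2 or 3, or NU7441 replicate 1 or 2, was left out. Of all genes, 18.5% were lower without background correction and 15.5% to 19.4% with those arrays left out. Leaving out NU7441 replicate 3 gave 1 higher, with 19% of all genes higher.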

How the data were processed

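Per the file headers, the authors deposited a probe signal as linear intensity, not normalized between arrays, and a detection p-value for each probe and array. The authors also deposited a log2 table, used as an alternative. Its values differed by at most 0.068 from quantile-normalized log2 signals, and each column's deviations matched its own array at a correlation of 0.9997 or more and any other at 0.784 or less. Its scale is thus log2 and uncentred, with a column median of 6.22. The tools named in the submitters' processing notes are lumi, GenomeStudio and R 3.0.2, with settings not given in the sources used here. Column names of the intensity table give V or T with a number, read as vehicle or treated and the replicate.

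The intensity was background corrected by normexp (offset 16, limma 3.58.1, R 4.3.3), with the negative control signal inferred from detection p-values, then quantile normalized and log2 transformed. Probes with detection p below 0.05 on all 3 arrays of a group were kept, 14973 of 47323. GEO's platform annotation named them, and the brightest kept probe stood for a gene. Groups were compared with lmFit and eBayes and Benjamini-Hochberg adjustment over 9342 genes at a threshold of 0.05, after a test on simulated data. Same-numbered arrays correlated at -0.102 to 0.035 in their deviations, so numbers were not treated as pairs. Members, lists and tests were chosen with earlier results of these data known. All measured members are named, and of each pathway list the 4 called genes with the largest change, ATF4 and MYC. The genes of the ATF4 list that fell are named as well. Alternatives were other background corrections, scalings, filters, probe summaries, variance models and thresholds, array weights, the replicate block and leaving out each array. When an array was left out, the kept probes stayed as they were. Promoter windows are from RefSeq, GRCh38.p14. Plots used matplotlib 3.10.9 under Python 3.11.15.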

Additional observations from a re-analysis of the deposited data

How the results depend on the processing

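Of the 11 called synthetases, all kept their direction under the 18 alternatives, and 6 also kept the call. All genes called numbered 3592 in the main analysis and 2278 with the threshold at 0.01, with 1220 lower and 1058 higher; there 3 mitochondrial synthetases were lower and 0 cytosolic synthetases were higher. With one array left out in turn, the lower count was 3 to 5 for cytosolic and 3 to 6 for mitochondrial synthetases, the higher count of cytosolic synthetases 0 to 1, and the medians ran from -0.17 to -0.0613 and from -0.27 to -0.14. Over all genes, 1451 to 1838 were then lower and 1313 to 1771 higher. The mitochondrial median was -0.0875 without background correction, -0.12 with an offset of 50 and -0.10 in the authors' deposited table. Scaling to the 75th percentile over all probes gave 0 higher cytosolic synthetases and a cytosolic median of -0.20. Taken over the probes detected on all arrays, a setting chosen after seeing the data, it gave 3 lower mitochondrial synthetases and a median of -0.10. It moved the median of all genes to 0.09, and the former scaling to -0.06. The cause of these shifts was not tested.

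No called gene changed sign. Of the genes that did not pass, EPRS1, TARS1, EARS2 and SARS2 turned to -0.10, -0.11, -0.0909 and -0.0917 with scaling over all probes, FARSB to 0.0739 with scaling over detected probes, and NARS1 and PARS2 to 0.0053 and -0.0021 with array weights. With single arrays left out, values ran from -0.0436 to 0.21 for EPRS1, -0.11 to 0.0377 for GARS1, -0.11 to 0.0582 for MARS1, -0.23 to 0.0155 for NARS1, -0.0736 to 0.18 for TARS1, -0.10 to 0.0622 for WARS1, -0.0646 to 0.10 for EARS2 and -0.15 to 0.13 for PARS2. With the replicate number as a block, 3494 genes were called and the synthetase counts were unchanged at 5 and 5 lower and 1 higher. A block for the slide was not fitted, since the files used here do not name slides. The scaffold count could not be computed, since no scaffold gene passed the filter.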
